A study of Mus musculus with 19 samples.

Results

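The genes described here are 9 genes for protein folding in the endoplasmic reticulum (ER), Hspa5, Hsp90b1, Calr, Pdia3, Pdia4, Pdia6, Dnajb9, Manf and Creld2, together with Xbp1, a transcription factor of the ER stress response. They were named individually, by a rule that uses no measured value but with earlier results of these data known, and matched by symbol to Ensembl identifiers, which gave 10 of the 55487 identifiers in the count table. All 10 were among the 15138 genes that passed the filter on low counts. The samples were hepatic stellate cells (HSCs), the vitamin A-storing pericytes of the liver, sorted by the ultraviolet fluorescence of the vitamin from healthy male Balb/c mice of 23 to 24 weeks, with no genetic change and no treatment other than culture. Freshly sorted cells (0 h, n = 2) were compared with cells cultured in serum-containing medium on plates coated with collagen for 3, 6, 12, 18 or 96 h (n = 3 for each time) or 24 h (n = 2), with the medium renewed at 3 h and 24 h. Each sample pooled 2 technical repeats and carries an M number (1, 2 or 3) in its label, which is read here as its isolation. The labels do not say what this number stands for. The isolation date in the label was the same for isolations 1 and 3 and different for isolation 2, so that isolations 1 and 3 could share a preparation. Freshly sorted cells were measured in isolations 2 and 3, and cells at 24 h in isolations 1 and 2. The question addressed by the time series is how transcription changes while HSCs go from quiescence to activation in culture.

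Secreted and membrane proteins fold in the ER, where chaperones hold unfolded chains, lectins retain glycoproteins, and disulfide isomerases form and rearrange the bonds between cysteines. When unfolded protein accumulates, 3 sensors in the ER membrane start the unfolded protein response (UPR): IRE1 (encoded by Ern1) splices Xbp1 RNA into the form that encodes the active factor, ATF6 is cut to release a transcription factor, and PERK (Eif2ak3) slows translation while allowing ATF4 to be made. ATF6 and XBP1 raise the transcription of ER chaperones, in part through the ER stress element (ERSE) of their promoters. Activated HSCs secrete large amounts of collagen, a client of this machinery.

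Promoters were examined because several of these genes are textbook targets of the ERSE. Each window ran from 250 bases before to 50 bases after the transcription start in RefSeq (GRCm38.p6), and 9 of the 10 genes had one, Manf being the exception. The ERSE was searched on both strands as CCAAT, then 9 bases of any kind, then CCACG, and it was found in 39 of the 32851 promoters of the same length (0.119%) and in those of Hspa5, Hsp90b1, Calr, Pdia6 and Creld2, 5 of the 9. Its 5′ part is itself a CCAAT box, which was present in 8 of the 9, all but Xbp1, and in 37.4% of all promoters. Neither the second form of the element, ATTGG, then any 1 base, then CCACG (0.0365% of all promoters), nor the core motif bound by XBP1, TGACG followed by TGG (0.676%), was found in any of the 9. A match describes these letters only and does not show binding. The 6 matches are given here in the direction of the element, 5′ to 3′, to show what they share and where they differ, with the fixed letters in capitals.
Hspa5: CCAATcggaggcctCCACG
Calr: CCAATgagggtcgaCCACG
Hsp90b1, upstream copy: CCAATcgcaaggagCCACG
Hsp90b1, downstream copy: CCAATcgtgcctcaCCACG
Pdia6: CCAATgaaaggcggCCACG
Creld2: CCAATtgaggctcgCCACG

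The 9 spacer bases between the fixed letters were different in all 6 matches, and the distance of the match from the start differed too, from -212 and -107 in Hsp90b1 to -65 in Hspa5 (first base of the match, counted along the gene's strand with -1 next to the start). The match read in the forward direction in Hspa5, Pdia6 and the upstream copy of Hsp90b1, and in the reverse direction in Calr, Creld2 and the downstream copy of Hsp90b1. The 250 bases upstream of the start are given below for Hspa5 and Calr, which both hold a match and whose transcripts had different time courses, and for Dnajb9, which holds none and rose at 6 h. They are written 5′ to 3′ on the gene's strand, with the fixed letters of the ERSE in capitals, so that a match in reverse reads CGTGG first and ATTGG last.
Hspa5 (chr2:34771840-34772089, + strand): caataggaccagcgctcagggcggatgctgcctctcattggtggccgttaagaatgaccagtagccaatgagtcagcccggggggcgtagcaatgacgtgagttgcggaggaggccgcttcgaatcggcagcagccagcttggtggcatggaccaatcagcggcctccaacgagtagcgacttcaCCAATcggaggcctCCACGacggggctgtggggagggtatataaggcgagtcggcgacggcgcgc
Calr (chr8:84846932-84847181, - strand): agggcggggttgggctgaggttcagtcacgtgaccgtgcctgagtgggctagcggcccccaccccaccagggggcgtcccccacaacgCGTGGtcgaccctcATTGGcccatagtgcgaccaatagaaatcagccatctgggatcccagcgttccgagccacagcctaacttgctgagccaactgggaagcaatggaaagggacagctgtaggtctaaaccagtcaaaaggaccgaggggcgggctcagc
Dnajb9 (chr12:44210069-44210318, - strand): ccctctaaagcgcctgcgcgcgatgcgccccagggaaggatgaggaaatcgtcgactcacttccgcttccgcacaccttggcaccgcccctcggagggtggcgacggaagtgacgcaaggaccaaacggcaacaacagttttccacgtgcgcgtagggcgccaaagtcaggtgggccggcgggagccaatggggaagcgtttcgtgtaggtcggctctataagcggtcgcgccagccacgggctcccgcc

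**Figure D1:**
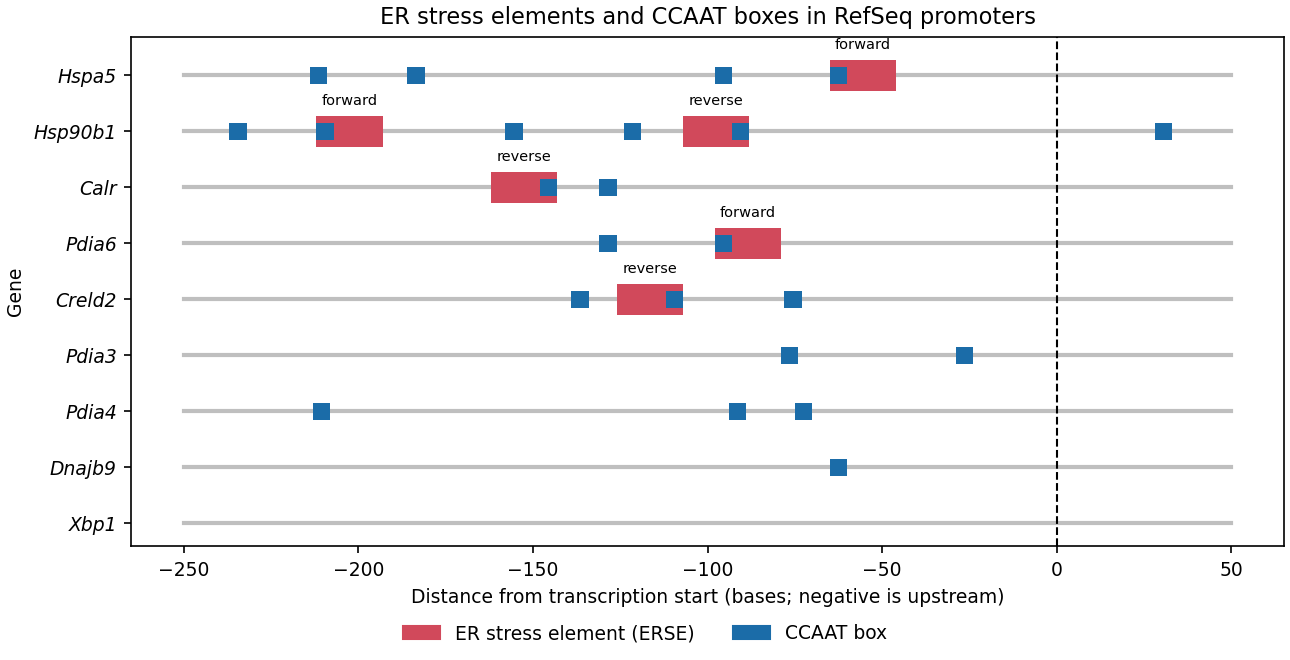
Position of ERSE matches (red, 19 bases, with their direction) and CCAAT boxes (blue) in the RefSeq promoters of 9 genes, by distance in bases from the transcription start. The 6 ERSE matches lie in the 5 upper genes, and Xbp1 has no mark of either kind.

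Sequencing covered the 3′ ends of transcripts, so that counts are not scaled by length and levels are compared here within a gene and not between genes. Total counts per sample were between 2073171 and 7690892, and levels are given as CPM, each gene's counts relative to the library total after TMM scaling. In these bulk samples, fewer cells of a type and less RNA per cell cannot be told apart. The sorted cells had the HSC markers listed (10 of 10 detected, 30700 to 35440 CPM in sum at 0 h, 5578 to 6678 at 12 h and 2737 to 3147 at 96 h). Markers of hepatocytes, cells with a large secretory load of their own, were all detected too (8 of 8) and summed to 3284 to 7415 CPM at 0 h against 96.7 to 156 at 12 h and 25.9 to 80.0 at 96 h. At 3 h the HSC markers were near their level at 0 h (31490 to 36440 CPM), as were those of Kupffer cells (215 to 390 against 337 to 354), whereas hepatocyte markers were lower (393 to 1254) and those of sinusoidal endothelial cells ranged higher (984 to 3813). By 12 h, markers of Kupffer cells went from 337 to 354 CPM at 0 h to 17.6 to 45.2 at 12 h with 3 of 8 still detected, and those of sinusoidal endothelial cells from 665 to 1040 to 74.96 to 439. Of the B cell and plasma cell markers, 1 of 8 was detected at 0 h (Igkc), and no T or NK cell marker was. The share of counts from mitochondrial genes was 12.67% and 13.98% in the samples at 0 h and 3.62% to 8.14% in the cultures. The samples also differed between times in culture. From 12 h to 96 h, 2 of the 10 HSC markers were called higher and 4 lower, 3 of the 8 endothelial markers were called lower (3.54 to 119 CPM in sum at 96 h), and the mitochondrial share went from 3.67% to 4.33% at 12 h to 5.54% to 6.09% at 96 h. The part of these differences in the comparisons below, against 0 h and between culture times, was not tested.

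Against 0 h, the ER genes did not move as a group. Hspa5 was called higher at 5 of the 6 times, Dnajb9 and Manf at 2 each, Pdia4 at 1, Calr and Pdia3 were called lower at 1 time each, and Hsp90b1, Pdia6, Creld2 and Xbp1 at none. A call required a fold change above 2 and an adjusted p below 0.1 in edgeR's quasi-likelihood test of all 19 samples. Of the 10 genes, 1 was called at 3 h, where 5.58% of all genes tested were. At 6 h 2 were called (11.3% of all genes) and at 12 h 4 (17.7%). The later times gave 2 calls at 18 h (15.9% of all genes), 1 call at 24 h (9.51%) and 2 calls at 96 h (10.9%). The median log2 fold change of the 10 genes was 0.28 at 12 h and 0.64 at 96 h, beside 0 and 0.07 over all genes tested. In an F test over all 7 times, 6 of the 10 had an adjusted p below 0.1 (27.4% of all genes), namely Calr, Hspa5, Pdia3, Pdia4, Dnajb9 and Manf. Over the 6 culture times alone 7 did (23.7% of all genes), these and Xbp1.

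**Figure D2:**
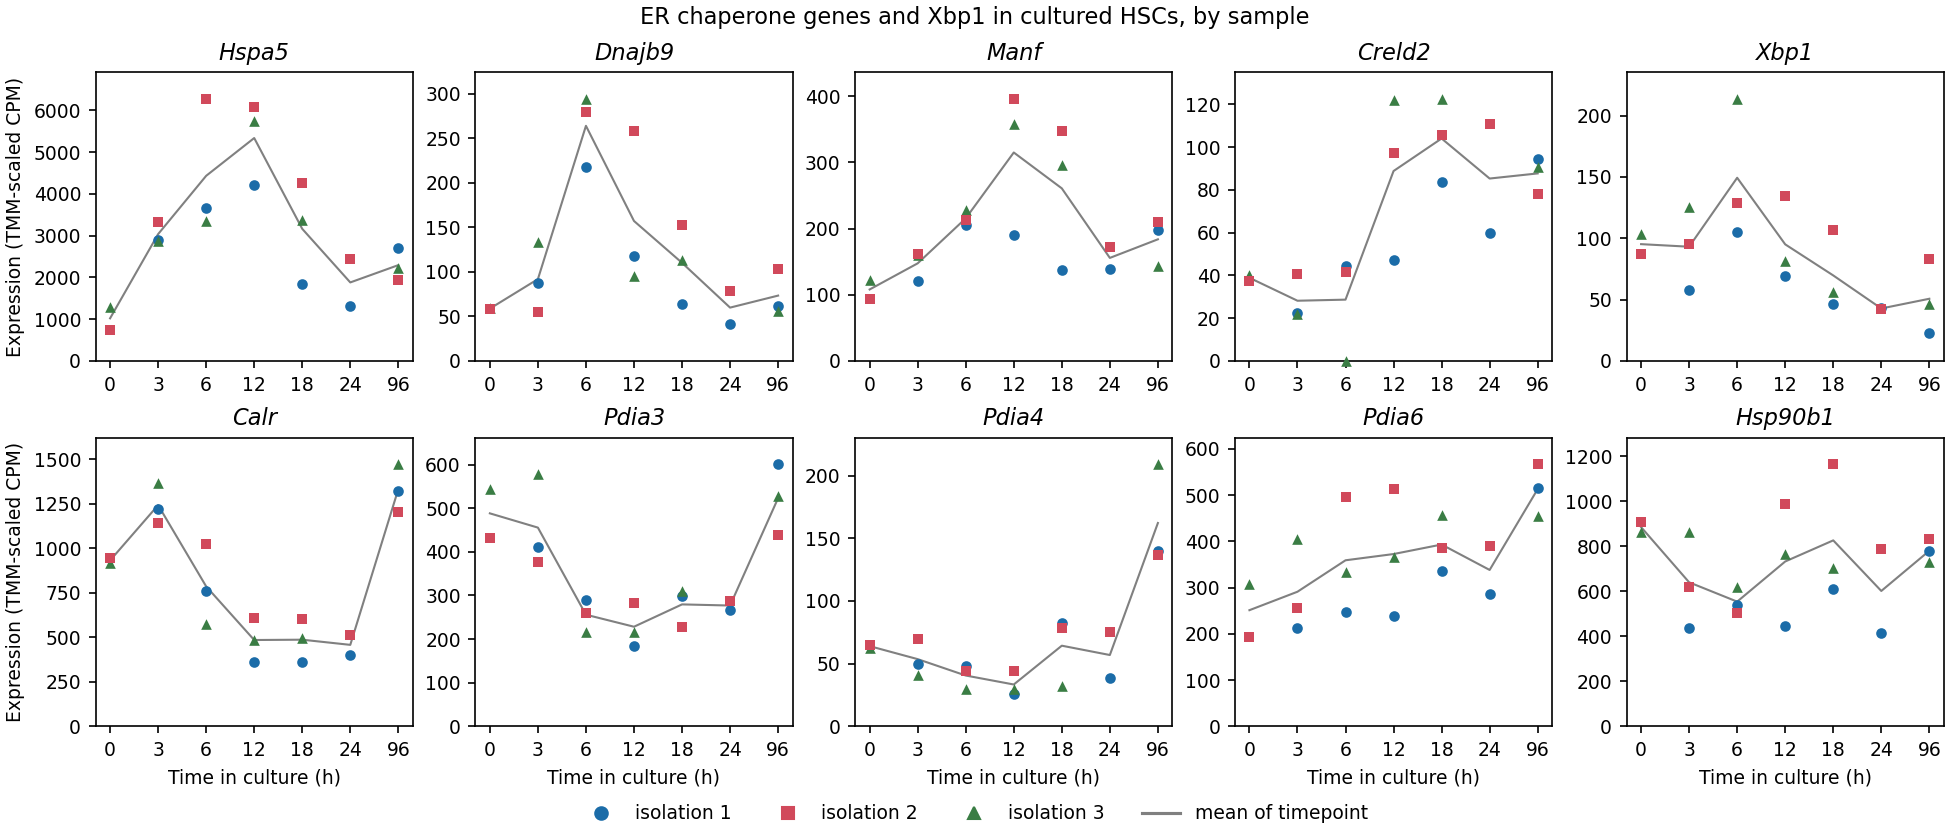
Level in TMM-scaled CPM (linear axis from 0, one scale per gene) of each gene in each of the 19 samples by time in culture; points are samples, shaped and coloured by isolation, and lines join the mean of each time. The time axis is not to scale. Hspa5, Dnajb9 and Manf are highest at 6 or 12 h, whereas Calr, Pdia3 and Pdia4 are lowest between 6 and 24 h and highest at 96 h.

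Hspa5 (ENSMUSG00000026864, chr2:34771970-34777547, + strand) encodes BiP, the Hsp70 chaperone of the ER lumen, which also holds the UPR sensors inactive. At 0 h it measured 746 and 1296 CPM in isolations 2 and 3. At 3 h it measured 2902, 3334 and 2871 CPM in isolations 1, 2 and 3, at 6 h 3670, 6281 and 3343, and at 12 h 4208, 6067 and 5731. The values were then 1844, 4268 and 3375 at 18 h, 1310 and 2450 in isolations 1 and 2 at 24 h, and 2714, 1934 and 2233 at 96 h. Every cultured sample lay above both samples at 0 h, the nearest being isolation 1 at 24 h. Neighbouring times in the order of means (12, 6, 18, 3, 96, 24 and 0 h) overlapped, apart from 3 h over 96 h and 24 h over 0 h.

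Hspa5 was higher than at 0 h by 1.57 ± 0.38 (SE) on the log2 scale after 3 h (edgeR, adjusted p = 0.0253), by 2.12 ± 0.39 after 6 h (0.00193) and by 2.39 ± 0.39 after 12 h (0.000516). The difference was 1.63 ± 0.38 after 18 h (edgeR, adjusted p = 0.0088) and 1.17 ± 0.37 after 96 h (0.0661). At 24 h it was 0.88 ± 0.40 and not called (adjusted p = 0.237), although scaling by library size alone brought it to 1.14 (edgeR, adjusted p = 0.0842). Within isolation 2 the log2 ratio of 12 h to 0 h was 3.02 and within isolation 3 it was 2.14. The increases at 6 and 12 h were called whichever sample was left out. Without the 0 h sample of isolation 2, which had the lower level, the edgeR adjusted p was 0.275 at 3 h, 0.163 at 18 h and 0.473 at 96 h. The call at 96 h also ended without the 96 h sample of isolation 1 (adjusted p = 0.166, edgeR) or isolation 3 (0.118).

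Dnajb9 (ENSMUSG00000014905, chr12:44205559-44210326, - strand) encodes ERdj4, a J-domain partner of BiP. It measured 58.4 and 59.2 CPM at 0 h, and 54.9 to 134 CPM at 3 h. At 6 h all 3 samples were far higher, with 217, 280 and 295 CPM in isolations 1, 2 and 3. The level was 117, 259 and 95.7 CPM in the same order at 12 h, 63.6, 153 and 114 at 18 h, 41.4 and 78.5 at 24 h (isolations 1 and 2), and 61.4, 103 and 56.1 at 96 h. Thus Dnajb9 stood above 0 h in every sample at 6, 12 and 18 h and overlapped it at 3, 24 and 96 h. It rose at 6 h by 2.17 ± 0.52 on the log2 scale (edgeR, adjusted p = 0.0134) and at 12 h by 1.42 ± 0.51 (0.0757). From 3 h to 6 h alone it rose by 1.52 ± 0.44 (edgeR, adjusted p = 0.0694), the single call among the 10 genes in that step (4.49% of all genes). Leaving out either sample at 0 h moved the edgeR adjusted p at 6 h to 0.107 or 0.118 with the log2 fold change at 2.15. At 12 h the call ended without either sample at 0 h (adjusted p = 0.255 and 0.265 by edgeR) and without the 12 h sample of isolation 2 (0.83 on the log2 scale, 0.291). The step from 3 h to 6 h was not called without isolation 1 or 2 at 3 h or without isolation 2 or 3 at 6 h (edgeR, adjusted p between 0.155 and 0.266).

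Manf (ENSMUSG00000032575, chr9:106838312-106891979, - strand) encodes a small secreted protein of the ER lumen that binds BiP. It had 94.3 and 122 CPM at 0 h. Its level was 120 to 162 CPM at 3 h and 206, 213 and 228 at 6 h, reached 191, 397 and 358 in isolations 1, 2 and 3 at 12 h, and was 138, 348 and 297 in the same order at 18 h. At 24 h it had 140 and 172 CPM and at 96 h 144 to 209. The samples at 6, 12, 18, 24 and 96 h were all above those at 0 h, and isolation 1 was the lowest at 12 and 18 h. Manf rose at 12 h by 1.54 ± 0.37 on the log2 scale (edgeR, adjusted p = 0.00892) and at 18 h by 1.27 ± 0.36 (0.0296), while at 6 h it had 1.00 ± 0.36 and was not called (0.106). With isolation as a block it was called at 6 h as well (1.15, edgeR adjusted p = 0.037). Without the 0 h sample of isolation 2 the calls at 12 h (edgeR, adjusted p = 0.113) and 18 h (0.255) ended, and the call at 18 h ended without the 18 h sample of isolation 2 too (0.127). The annotated locus of Manf overlaps Dcaf1 on the other strand (6937 counts over the 19 samples) and Rbm15b on the same strand (4830 counts), beside 20017 for Manf, so that its counts could hold reads of these genes.

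Calr (ENSMUSG00000003814, chr8:84841850-84846934, - strand) encodes calreticulin, the lumenal lectin that retains glycoproteins until they are folded and that buffers ER calcium. It measured 946 and 916 CPM in isolations 2 and 3 at 0 h and 1220, 1142 and 1366 CPM in isolations 1, 2 and 3 at 3 h. After that it had 758, 1026 and 574 at 6 h, 362, 608 and 484 at 12 h, 360, 604 and 496 at 18 h, and 403 and 512 at 24 h (isolations 1 and 2). At 96 h it stood at 1319, 1202 and 1474 CPM. All 8 samples at 12, 18 and 24 h lay under both samples at 0 h, and all samples at 96 h lay above them. Relative to 0 h its log2 fold change was -0.94 ± 0.26 at 12 h (edgeR, adjusted p = 0.0199) and -0.94 ± 0.26 at 18 h (0.0227), just inside the 2-fold limit and so not called, and -1.03 ± 0.29 at 24 h (0.0362), just past it. DESeq2 called Calr lower at 12 h (-1.17, adjusted p = 9.33e-05) and at 18 h (-1.17, 9.94e-05). So did edgeR without the filter on low counts at 12 h (-1.01, adjusted p = 0.00979). Of the 12 alternatives run at each time, 9 at 12 h and 8 at 18 h left it uncalled. The call at 24 h ended when any of its 4 samples was left out (edgeR, adjusted p between 0.101 and 0.294) and, by the fold limit, with isolation as a block (-0.95, adjusted p = 0.0453).

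From 24 h to 96 h Calr rose by 1.54 ± 0.27 on the log2 scale (edgeR, adjusted p = 0.00532), and it was the single gene of the 10 called in that step (2.72% of all genes). Without the 24 h sample of isolation 1 the change was 1.38 with an edgeR adjusted p of 0.102. Against 12 h, Calr at 96 h was higher by 1.46 ± 0.24 (edgeR, adjusted p = 0.000574). A pseudogene of Calr had 123 counts over the 19 samples, beside 72975 for Calr.

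Pdia3 (ENSMUSG00000027248, chr2:121413775-121438687, + strand) encodes ERp57, the disulfide isomerase that works on glycoproteins held by calreticulin and calnexin, and its course was close to that of Calr. It had 432 and 545 CPM in isolations 2 and 3 at 0 h and 412, 377 and 578 in isolations 1, 2 and 3 at 3 h. At 6 h it had 290, 261 and 216 CPM, at 12 h 185, 283 and 217, at 18 h 299, 228 and 311, at 24 h 266 and 287 (isolations 1 and 2), and at 96 h 602, 439 and 529. Every sample between 6 and 24 h was below every sample at 0, 3 and 96 h, which overlapped among themselves. Pdia3 fell by 1.10 on the log2 scale at 12 h (SE 0.23, edgeR, adjusted p = 0.00426). The log2 fold changes at 6 h (-0.93 ± 0.23, edgeR, adjusted p = 0.0175), 18 h (-0.80 ± 0.24, 0.0327) and 24 h (-0.82 ± 0.26, 0.0743) had adjusted p below 0.1 but were smaller than 2-fold, and at 96 h the value was 0.10 ± 0.24 (0.897). DESeq2 called Pdia3 lower at 6 h (-1.15, adjusted p = 3.77e-05), 18 h (-1.04, 0.000203) and 24 h (-1.03, 0.00122). It stayed uncalled in 9 of the 12 alternatives run at 6 h, 10 of 12 at 18 h and 9 of 11 at 24 h. The call at 12 h rests near the fold limit: it ended without the 0 h sample of isolation 3 (-0.94, edgeR adjusted p = 0.0632) or the 12 h sample of isolation 1 (-0.97, 0.0202).

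Pdia4 (ENSMUSG00000025823, chr6:47796141-47813430, - strand) encodes ERp72, another lumenal disulfide isomerase. At 0 h it had 65.2 and 62.8 CPM, and at 3 h 40.7 to 70.0. It was lowest at 12 h, with 26.2, 43.9 and 30.02 CPM in isolations 1, 2 and 3, after 48.0, 43.9 and 29.6 at 6 h. At 18 h it had 82.4, 78.8 and 31.8 CPM, at 24 h 38.8 and 75.0, and at 96 h 140, 137 and 209. The 3 samples at 96 h were above every other sample of the series, and those at 6 and 12 h were below both samples at 0 h. At 96 h Pdia4 was higher than at 0 h by 1.34 ± 0.46 on the log2 scale (edgeR, adjusted p = 0.0864), a call that ended when any of the 5 samples was left out (adjusted p between 0.11 and 0.313, edgeR). Its value at 12 h, -0.94 ± 0.43, was not called (edgeR, adjusted p = 0.17), although DESeq2 called it (-1.16, adjusted p = 0.0413). Pdia6 (ENSMUSG00000020571, chr12:17266545-17284770, + strand), which encodes an isomerase that also binds BiP and IRE1, had 194 and 308 CPM at 0 h and 516, 568 and 455 in isolations 1, 2 and 3 at 96 h, with samples at other times between 212 and 514. It was not called at any time. Its log2 fold change at 96 h was 1.03 ± 0.37 (edgeR, adjusted p = 0.102), and it was called there with isolation as a block (1.22, adjusted p = 0.0252) and with scaling by library size alone (1.17, 0.0552).

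Hsp90b1 (ENSMUSG00000020048, chr10:86690209-86705509, - strand) encodes GRP94, the Hsp90 chaperone of the ER. It had 906 and 864 CPM at 0 h, 413 to 1166 in the cultures before 96 h, and 778, 833 and 729 at 96 h. No time was called, the lowest adjusted p by edgeR being 0.266 at 6 h (-0.68 ± 0.35 on the log2 scale). Creld2 (ENSMUSG00000023272, chr15:88819646-88826683, + strand), an ER-resident protein with isomerase-like motifs that is known as an ER stress target, had 37.6 and 40.2 CPM at 0 h. It had 21.8 to 40.5 CPM at 3 h, 44.5 and 41.6 in isolations 1 and 2 at 6 h, and then 47.2, 97.2 and 122 at 12 h, 83.8, 106 and 123 at 18 h, 59.6 and 111 at 24 h, and 78.0 to 94.6 at 96 h. All 11 samples from 12 h onwards were above all 8 earlier ones, but the test called none of these times, with log2 fold changes against 0 h of 1.13 to 1.42 and standard errors of 1.07 to 1.14 (edgeR, adjusted p between 0.435 and 0.658). Isolation 3 at 6 h had 0 counts of Creld2 among 5609553 (an upper limit of 0.548 CPM at 3 counts). A fit of the 2 groups alone, which leaves out all samples of the other times, called Creld2 at 18 h (1.39, edgeR adjusted p = 0.0487) and at 96 h (1.17, 0.045). The part of the sample with 0 counts in this difference was not tested.

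Xbp1 (ENSMUSG00000020484, chr11:5520659-5525893, + strand) encodes the transcription factor made after IRE1 splices its RNA. The 3′ counts do not separate the spliced from the unspliced form. It had 87.0 and 103 CPM in isolations 2 and 3 at 0 h, 58.0, 95.6 and 126 in isolations 1, 2 and 3 at 3 h, and 105, 129 and 214 at 6 h, its highest mean. Thereafter it had 69.3, 134 and 81.4 CPM at 12 h, 46.8, 106 and 55.9 at 18 h, 43.5 and 42.04 at 24 h (isolations 1 and 2), and 22.7, 83.3 and 46.1 at 96 h. The 6 h samples were all above both samples at 0 h, and the samples at 24 h and 96 h were all below them. Xbp1 was called at no time against 0 h, with log2 fold changes of 0.65 ± 0.52 at 6 h (edgeR, adjusted p = 0.489), 0.00 ± 0.51 at 12 h (1), -1.15 ± 0.57 at 24 h (0.288) and -0.91 ± 0.51 at 96 h (0.32). DESeq2 called it at 24 h (-1.37, adjusted p = 0.0958), as did the edgeR fit of those groups alone (-1.18, 0.0997). Among the culture times the F test gave it an edgeR adjusted p of 0.0947.

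Between neighbouring times after 6 h, few changes could be shown. From 6 to 12 h (1.84% of all genes called), 12 to 18 h (0.225%) and 18 to 24 h (0.0396%), edgeR called 0 of the 10 genes, and 1, 2 and 0 of them had an unadjusted p under 0.05. DESeq2 likewise called 0 in each of these steps. Between 12 h and 96 h, by contrast, 4 of the 10 were called, where 13.5% of all genes were: Pdia4, Calr and Pdia3 were higher at 96 h by 2.28 ± 0.41, 1.46 ± 0.24 and 1.20 ± 0.22 on the log2 scale (edgeR, adjusted p = 0.0013, 0.000574 and 0.00137), and Hspa5 was lower (-1.22 ± 0.33, 0.0222). For each of these 4 genes the 3 samples at 96 h and the 3 at 12 h did not overlap, and each was called in all 13 alternatives run for it, including the omission of any one sample. Dnajb9 (-1.10 ± 0.43, edgeR, adjusted p = 0.125) and Manf (-0.78 ± 0.31, 0.133) were not called, and Xbp1 had -0.90 ± 0.46 (0.236).

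**Figure D3:**
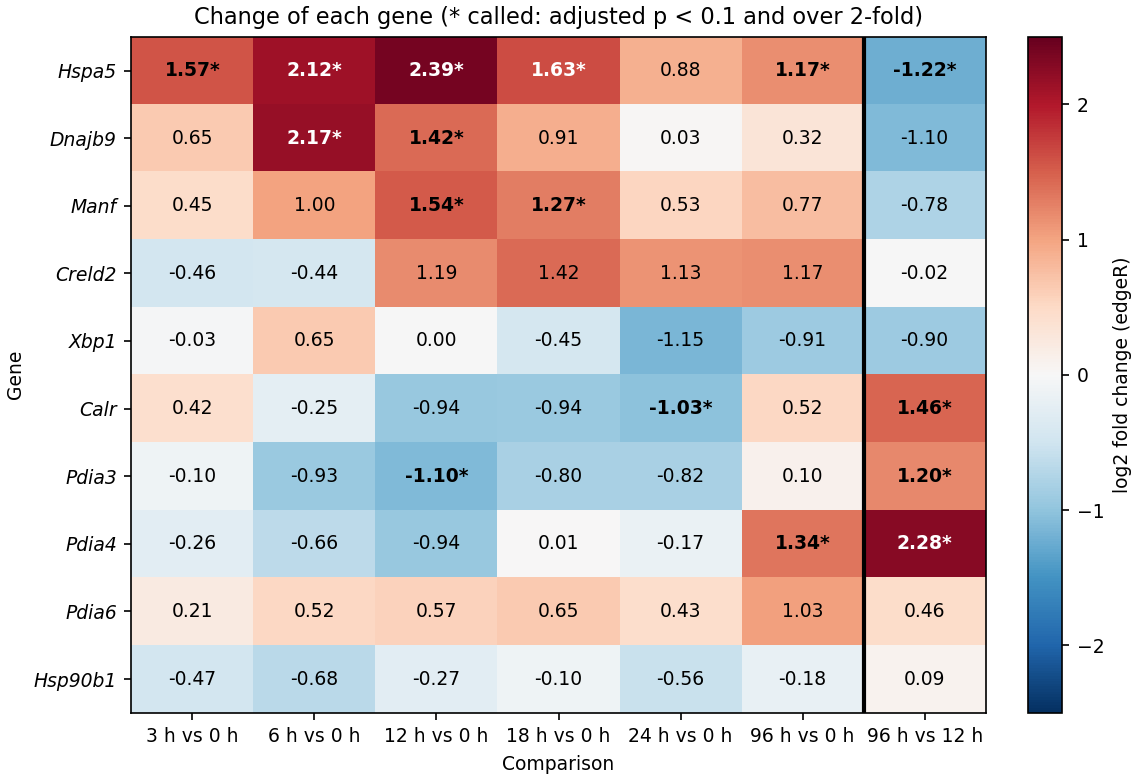
Log2 fold change from edgeR of each gene (rows) at each time against 0 h and, right of the line, at 96 h against 12 h; red is higher, blue lower, and an asterisk marks an adjusted p below 0.1 with a fold change above 2. Hspa5 carries 5 asterisks against 0 h, and the last column holds 3 genes called higher and Hspa5 called lower.

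Ratios of counts within a sample do not depend on the scaling between samples. The ratio of Hspa5 to Calr counts was 0.788 and 1.41 at 0 h, 2.10 to 2.92 at 3 h, 4.84 to 6.12 at 6 h and 9.98 to 11.8 at 12 h, then 5.13 to 7.07 at 18 h, 3.25 and 4.79 at 24 h, and 1.52 to 2.06 at 96 h. Samples at 12 h were above all others, and those at 96 h were below all other cultures and above 0 h. Hspa5 made up 20.91% and 30.02% of the summed CPM of the 10 genes at 0 h, 64.6% to 71.4% at 12 h and 34.6% to 42.1% at 96 h. The ratio of Pdia4 to Hspa5 counts was 0.0484 and 0.0874 at 0 h, 0.00524 to 0.00724 at 12 h and 0.0517 to 0.0938 at 96 h. The ratio of Dnajb9 to Calr was 0.0617 and 0.0647 at 0 h, 0.273 to 0.514 at 6 h and 0.0381 to 0.0857 at 96 h. The samples at 96 h thus overlapped those at 0 h in both of these ratios, but not in that of Hspa5 to Calr.

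**Figure D4:**
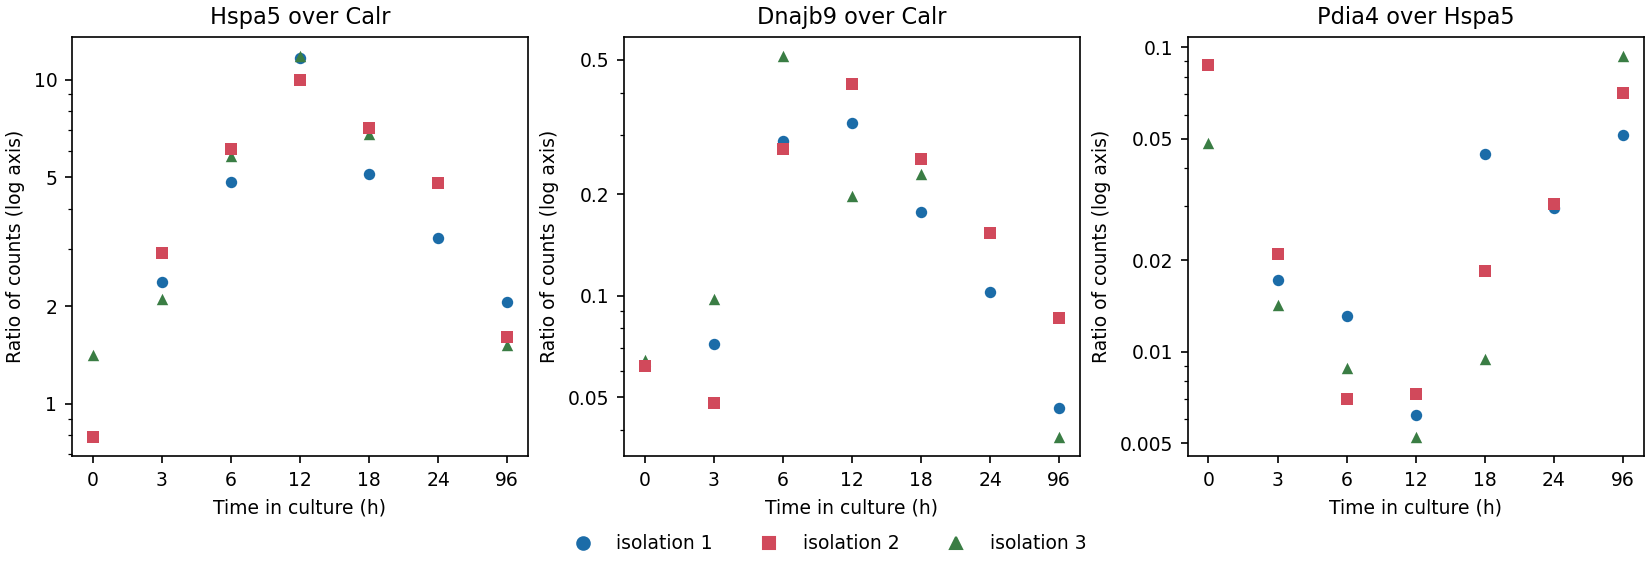
Ratio of the counts of Hspa5 to Calr, Dnajb9 to Calr and Pdia4 to Hspa5 in each of the 19 samples (log axes), by time in culture, with isolations by shape and colour. The ratio of Hspa5 to Calr goes from 0.788 and 1.41 at 0 h to 9.98 to 11.8 at 12 h and back to 1.52 to 2.06 at 96 h.

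Over the 19 samples, which share times and isolations, Pearson's r of log2(CPM + 1) was 0.802 for Calr and Pdia3, 0.792 for Hspa5 and Manf, 0.706 for Xbp1 and Dnajb9, and 0.700 for Hspa5 and Dnajb9. For Hspa5 and Pdia3 it was -0.502, for Hspa5 and Xbp1 0.316, and for Xbp1 and Creld2 -0.572. The last value includes isolation 3 at 6 h, which had 0 counts of Creld2 and the highest level of Xbp1 in the series (214 CPM). No r was computed without that sample. Among the 3768 genes whose mean reached 50 CPM, those closest to Hspa5 over the 19 samples were Phrf1 (r = 0.912), Vegfa (0.909), Eif2s2 (0.893), Bmp10 (0.893) and Hk2 (0.879). Vegfa, the angiogenic growth factor, had 24.96 ± 0.20 CPM at 0 h (SD, n = 2), 166 ± 62.8 at 12 h (n = 3) and 38.5 ± 6.94 at 96 h (n = 3). Those closest to Xbp1 were Lhfpl2 (r = 0.831), Appbp2 (0.814), Egr1 (0.784), Mbd2 (0.767) and Ythdf3 (0.765). These are descriptions of shared course over the same libraries and carry no test.

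The genes upstream of the chaperones were examined in a list of 10 UPR sensors and transducers, all of which were tested. At 3, 6 and 12 h, 3, 3 and 4 of the 10 were called higher and none was called lower. At 18 h 3 were called higher and 1 lower, at 24 h 2 higher, and at 96 h 2 higher and 1 lower. Of all genes, 5.58%, 11.3%, 17.7%, 15.9%, 9.51% and 10.9% were called at these times in turn. In this list the share was 30% at 3 and 6 h, 40% at 12 and 18 h, 20% at 24 h and 30% at 96 h. The number higher at 96 h was 0 without the 0 h sample of isolation 2, and 1 without that of isolation 3 or without isolation 1 at 96 h. The median log2 fold change of the 10 genes was -0.31 at 3 h and 0.40 at both 12 h and 96 h. Atf6, the sensor that becomes a transcription factor, had 26.6 and 39.2 CPM at 0 h, 266 to 328 at 12 h and 67.8 to 117 at 96 h, a log2 fold change of 3.18 ± 0.43 at 12 h (edgeR, adjusted p = 7.96e-05). Ern1, which encodes IRE1, had 13.1 and 20.1 CPM at 0 h, 152 to 164 at 6 h and 18.9 to 41.9 at 96 h (3.25 ± 0.48 at 6 h, edgeR, adjusted p = 0.000293). Creb3l1, a transducer related to ATF6 that is known to act on collagen genes, had 32.1 and 55.7 CPM at 0 h and 300 to 375 at 6 h (2.98 ± 0.38, edgeR, adjusted p = 8.73e-05). For each of these 3 genes the 6 h and 12 h samples were all above 0 h, and between 12 h and 96 h each fell (log2 fold change -1.75, -2.23 and -2.22, edgeR, adjusted p = 0.00253, 0.001 and 0.000169). Eif2ak3, the gene of PERK, had 2.40 to 20.3 CPM over all samples and was not called at any time. Mbtps1, the protease that makes the first cut in ATF6, was lower at 96 h with 25.5 to 45.7 CPM against 103 and 153 at 0 h (-1.92 ± 0.38, edgeR, adjusted p = 0.00352).

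The list called the PERK-ATF4 arm takes its name from the pathway. PERK activity was not measured, and its part in the changes of these genes was not tested. Of the 11 genes listed, all tested, 7 were called higher after 3 h, 9 after 6 h and 9 after 12 h. None was called lower at these times. At 18 h 6 were called higher and 1 lower, at 24 h 5 higher and 2 lower, and at 96 h 4 higher and 3 lower than at 0 h. Of all genes, 5.58%, 11.3%, 17.7%, 15.9%, 9.51% and 10.9% were called at these times in turn. In this list the share was 63.6% at 3 h, 81.8% at 6 and 12 h, and 63.6% at 18, 24 and 96 h. The 4 genes higher at 96 h became 2 with only the groups compared and 6 with DESeq2. When 1 sample was left out, the genes called numbered 6 to 8 at 6 h and 7 to 10 at 12 h. The median log2 fold change of the list at 12 h was 3.05. At 96 h it was 2.29 by the fitted values but 1.09 when the 3 genes at or under 3 counts in one of the groups were set to that floor. Atf4, the transcription factor of the arm, had 120 and 183 CPM at 0 h, 1327, 1097 and 1055 in isolations 1, 2 and 3 at 3 h, 1173 to 1410 at 12 h and 199 to 267 at 96 h. It rose by 3.05 ± 0.30 on the log2 scale at 12 h (edgeR, adjusted p = 2.97e-06). Ddit3, which encodes CHOP, a factor linked to cell death in prolonged ER stress, had 46.7 and 79.7 CPM at 0 h, 333 to 347 at 3 h, 132 to 181 at 12 h and 11.1 to 19.8 at 96 h, where it was lower than at 0 h (-2.12 ± 0.38, edgeR, adjusted p = 0.00157). Chac1, a glutathione-degrading target of ATF4, went from 0.752 and 2.51 CPM at 0 h to 305 to 683 at 6 h. Trib3, a pseudokinase target of ATF4, had 0 counts in both samples at 0 h and between 86.8 and 108 CPM in the 12 h samples, which is at least 87.8-fold higher given a floor of 3 counts per library. Asns, the asparagine synthetase, had 0 and 4.02 CPM at 0 h and 222 to 245 at 12 h. Ppp1r15a, which encodes the phosphatase subunit that restores translation, had 136 to 202 CPM at 96 h against 564 and 785 at 0 h (-1.92 ± 0.29, edgeR, adjusted p = 0.000395), and Atf3 had 0, 0 and 1.18 CPM at 96 h against 247 and 456 at 0 h. From 12 h to 96 h, 9 of the 11 genes were called lower and none was called higher (81.8% called against 13.5% of all genes).

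**Figure D5:**
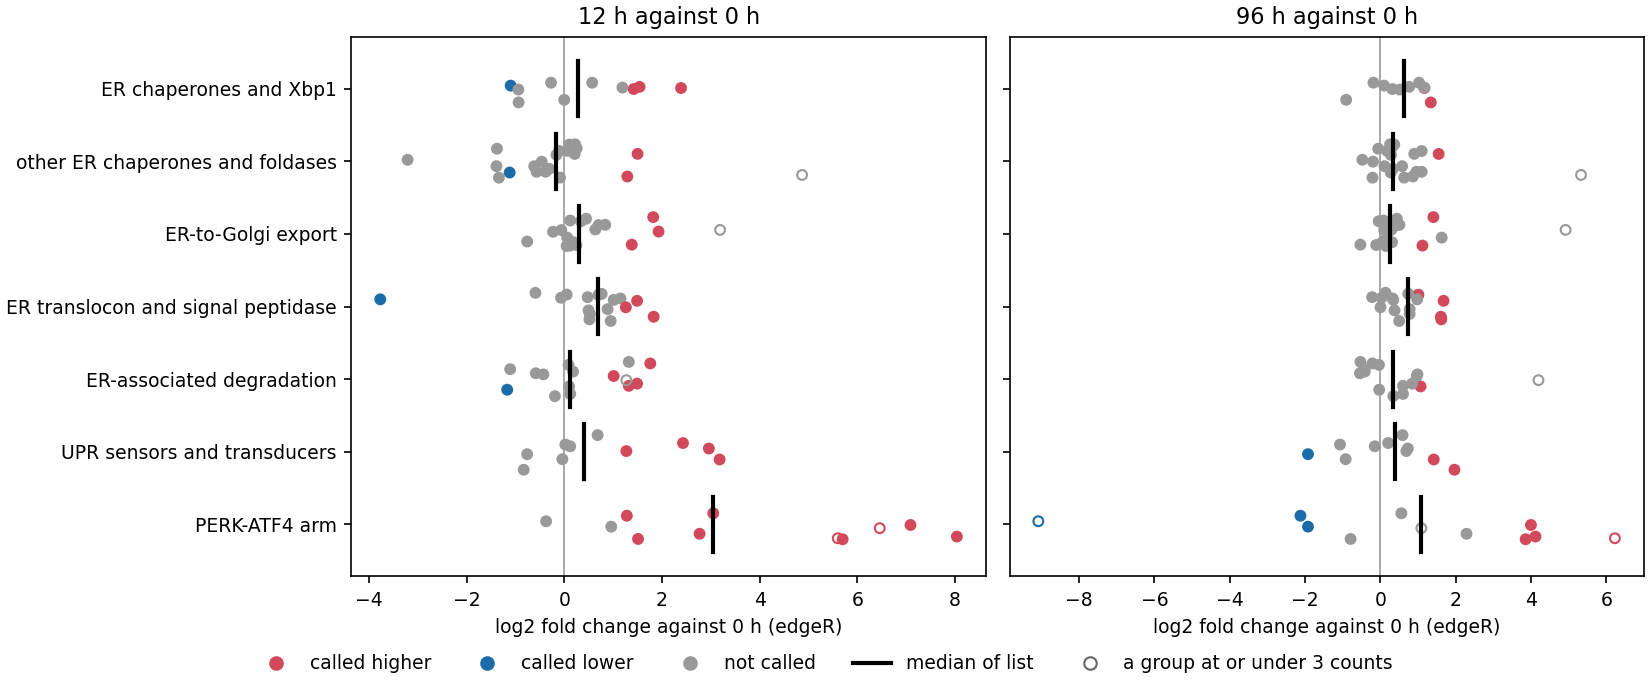
Log2 fold change from edgeR at 12 h (left) and 96 h (right) against 0 h of the genes in each list; red and blue points were called higher and lower, grey points were not called, bars are medians, and open points are genes whose mean in a group was at or under 3 counts, set to that floor. The PERK-ATF4 arm lies furthest to the right at 12 h (median 3.05), and the 10 ER chaperone genes and Xbp1 have medians of 0.28 and 0.64.

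In the list of 21 other ER chaperones and foldases, 0 genes were called at 3 and at 6 h (5.58% and 11.3% of all genes). DESeq2 called 2 of the list at 6 h. At 12 h, 2 were called higher and 1 lower, 14.3% of the list where 17.7% of all genes were called. At 96 h 1 was called higher (4.76% against 10.9%). Neither share exceeded that of all genes. The median log2 fold change was -0.16 at 12 h and 0.33 at 96 h. Serpinh1, the collagen chaperone HSP47, had 835 and 998 CPM at 0 h and 1820 to 2457 at 12 h (1.29 ± 0.29, edgeR, adjusted p = 0.00626), and Ero1l, the oxidase that recharges disulfide isomerases, had 16.1 and 55.2 CPM at 0 h and 78.8 to 115 at 12 h (1.5 ± 0.50, 0.0571). Dnajc10, a disulfide reductase with a J domain, fell at 12 h to 61.7 to 85.2 CPM from 152 and 176 (-1.12 ± 0.29, edgeR, adjusted p = 0.0156) and was higher again at 96 h than at 12 h (1.40 ± 0.27, 0.00233). P4hb, the main disulfide isomerase and a subunit of the collagen prolyl hydroxylase, was called higher at 96 h (1.55 ± 0.24, edgeR, adjusted p = 0.00048).

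Of 15 genes of ER-associated degradation, which removes misfolded proteins from the ER, 3 were called higher at 6 h (20% of the list against 11.3% of all genes). At 12 h 4 were called higher and 1 lower (33.3% against 17.7%). The list had a log2 fold change of 0.12 in the median at 12 h and 0.35 at 96 h. Herpud1, a membrane component of the degradation complex, had 72.3 and 79.5 CPM at 0 h, 243 to 374 at 6 h and 43.3 to 95.1 at 96 h (1.96 ± 0.42 at 6 h, edgeR, adjusted p = 0.00584). Selenos (1.49 ± 0.31) and Ubxn4 (1.32 ± 0.26), which recruit the extracting ATPase, rose at 12 h (edgeR, adjusted p = 0.00358 and 0.00249), whereas Os9, a lectin that recognises misfolded glycoproteins, fell (-1.17 ± 0.40, 0.0619). At 96 h, 1 of the 15 was called higher, Ube2j1 (1.07 ± 0.26, edgeR, adjusted p = 0.0159), which is 6.67% of the list against 10.9% of all genes, and the number was 0 with DESeq2 and 2 with scaling by library size alone.

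In the translocon and signal peptidase list (17 genes), 3 were called higher and 0 lower at 6 h (17.6% against 11.3% of all genes). With 1 sample left out, 1 to 3 were called at 6 h. The list gave 3 genes called higher and 1 lower at 12 h and 4 higher at 96 h, with medians of 0.70 and 0.74 on the log2 scale. Both are 23.5% of the list, where 17.7% and 10.9% of all genes were called. Without the 0 h sample of isolation 2 the genes higher numbered 5 at 12 h and 2 at 96 h. They numbered 5 at 12 h without isolation 1 at 12 h, too, and 2 at 96 h without isolation 2 at 96 h. Sec61a1, the channel itself, had 129 and 131 CPM at 0 h, 353 to 385 at 12 h and 301 to 499 at 96 h (1.49 ± 0.24 and 1.68 ± 0.24, edgeR, adjusted p = 0.000342 and 0.000191). The signal recognition particle receptor genes Srprb (1.83 ± 0.39) and Srpr (1.26 ± 0.32) rose at 12 h as well (edgeR, adjusted p = 0.00385 and 0.0126). Sec11c, a catalytic subunit of signal peptidase, had 14.8 and 34.7 CPM at 0 h and 0.133 to 4.07 at 12 h (-3.77 ± 1.12, edgeR, adjusted p = 0.0334). In the list of 18 genes of export from the ER to the Golgi, 3 were called higher and 1 lower at 6 h (22.2% against 11.3% of all genes). With 1 sample left out, 1 to 4 were called at 6 h. At 12 h 3 were called higher and 0 lower, the median being 0.29 on the log2 scale. This was 16.7% of the list, near the 17.7% of all genes called. The 3 were Mcfd2 (1.93 ± 0.31), a cargo receptor subunit, Sar1a (1.82 ± 0.43), the GTPase of the vesicle coat, and Mia2 (1.38 ± 0.39), which acts in the loading of large cargo (edgeR, adjusted p = 0.000388, 0.00849 and 0.0231). At 96 h 2 of the 18 were called higher, Sar1a and Surf4 (11.1% of the list against 10.9% of all genes), and the median was 0.26. Over the alternatives run, the number of genes called higher at 12 h was between 1 and 3 for the other chaperones, 3 and 5 for degradation, 2 and 5 for the translocon and 2 and 4 for export, and at 96 h it was between 1 and 3, 0 and 2, 2 and 5, and 1 and 3, respectively.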

How the data were processed

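RNASeq libraries (QuantSeq 3′, forward kit) were made from 19 samples. The authors deposited raw counts per gene, whole numbers without normalization; per the labels and the paper, reads were mapped with STAR to mm10 (GRCm38.p6) and assembled with StringTie, and the counting tool is not given in the sources used here. Identifiers were matched to symbols and loci in GENCODE M21 (55227 of 55487). Genes were filtered with filterByExpr (15138 left), scaled by TMM and tested in edgeR 4.0.16 (R 4.3.3) by quasi-likelihood, in a model of time alone, with Benjamini-Hochberg adjustment over all genes. DESeq2 1.42.0, other scaling, filters and thresholds, the isolation number as a block, the isolation date as a covariate and the omission of single samples were alternatives. The isolation number is the M number of the labels, which do not define it. In residuals from the mean of each time, pairs sharing a number correlated with a mean r of 0.0143 (51 pairs) and other pairs with -0.00704 (103 pairs). Taking out these means ties both values together, so that they are not separate results. The other pairs include those between numbers 1 and 3. Samples of one time carry different numbers, and the paper calls its repeats independent, but numbers 1 and 3 share an isolation date. Where nothing tells separate animals or preparations apart, p-values measure the spread between these samples. A level of 3 counts was 0.386 to 1.51 CPM and covers counting error only. Tested on simulated data at 12 h against 0 h (14111 genes), the fit recovered 24 of 100 genes changed by 1.5 and 69 of 100 changed by 3 on the log2 scale, with 3 false calls. Only these genes, all with a mean above 20 CPM, were changed in the simulation, whereas 17.7% of all genes were called in the data at 12 h. The adjustment depends on that share, so that the recovery in the data can differ. The 10 genes and the 6 pathway lists (92 genes) were chosen with earlier results of these data known. In each list, named genes were the 3 with the largest fold at 12 h among those called and with a mean of at least 20 CPM, those called in the direction opposite to most of the list, and the genes of the sensors, Atf4 and Ddit3. The genes most like Hspa5 and Xbp1 were the 5 with the highest r among genes outside all lists, so that no listed gene could appear. P4hb, Ube2j1 and Surf4 were named after their values were seen. Symbols with more than 1 identifier were taken at the longest locus.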

Additional observations from a re-analysis of the deposited data

How the results depend on the processing

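Between 12 h and 96 h, the 4 calls were the same in every alternative run (4 to 6 genes called when 1 sample was left out). Elsewhere the calls moved, among the 10 genes and over all genes. The main fit tested 15138 genes, DESeq2 23243 and the fit without the filter on low counts 23696. With only the groups compared, 11433 were tested at 24 h and 12261 at 96 h. The number of the 10 genes called is given below, with that over all genes in parentheses. At 18 h against 0 h it was 4 without the fold limit (2642) and with DESeq2 (3182), beside 2 (2400). At 24 h it was 2 without the fold limit (1547), 0 with isolation as a replicate block (1340), 2 with only the groups compared (1802) and 3 with DESeq2 (2337), beside 1 (1440). At 96 h it was 0 at an adjusted p below 0.05 (1237), 1 without the filter on low counts (1444) and 4 with only the groups compared (2298), beside 2 (1644). From 3 to 6 h it was 0 at an adjusted p below 0.05 (488) and 2 without the fold limit (843), beside 1 (680). From 24 to 96 h it was 2 without the fold limit (481), with the block (426), with the isolation date as covariate (403) and with DESeq2 (886), beside 1 (411). The block changed no other call than those given here and above. Leaving out 1 sample gave 0 to 1 genes at 3 h, 1 to 3 at 6 h, 2 to 4 at 12 h, 1 to 3 at 18 h, 0 to 1 at 24 h, 0 to 1 at 96 h, 0 to 1 from 3 to 6 h and 0 to 2 from 24 to 96 h. Over all genes these omissions moved the calls as well, to between 1924 and 2415 at 12 h, beside 2680, and between 1043 and 1376 at 96 h, beside 1644. The cause was not tested.

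The values that changed sign were small and not called. Xbp1 at 3 h was 0.17 with the block, 0.0205 with the date, 0.0402 in thinned counts and 0.0257 with only the groups compared, and at 12 h 0.0935 with library size only, 0.21 with the block and 0.0105 with only the groups compared. Hsp90b1 at 18 h was 0.14 with library size only and 0.0357 with the block, and at 96 h 0.00897 with the block. Pdia4 at 18 h was -0.0532 without the filter, -0.0274 with the block, -0.19 in thinned counts, -0.0193 with only the groups compared and -0.22 with DESeq2, and at 24 h 0.11 with library size only. Dnajb9 at 24 h was -0.0263 without the filter, -0.0425 with the date, -0.11 in thinned counts, -0.00285 with only the groups compared and -0.19 with DESeq2. Pdia3 at 96 h was -0.0424 with DESeq2. Leaving out 1 sample gave -0.27 to 0.0718 for Pdia3, -0.0664 to 0.58 for Pdia6 and -0.27 to 0.25 for Xbp1 at 3 h, -0.91 to 0.15 for Creld2 at 6 h, -0.36 to 0.18 for Xbp1 at 12 h, -0.48 to 0.0784 for Hsp90b1 and -0.22 to 0.33 for Pdia4 at 18 h, -0.72 to 0.23 for Pdia4 and -0.50 to 0.42 for Dnajb9 at 24 h, and -0.0634 to 0.28 for Pdia3 and -0.00297 to 0.48 for Dnajb9 at 96 h.

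Scaling by library size alone moved the median log2 fold change of all genes to 0.237 at 24 h and 0.221 at 96 h, and the genes called at 24 h to 1249 higher and 499 lower, from 856 and 584. From 24 to 96 h it gave 171 higher and 293 lower, from 207 and 204, and from 3 to 6 h 471 and 245, from 379 and 301. DESeq2 called more genes than edgeR, 1603 against 844 at 3 h and 2337 against 1440 at 24 h. Both 0 h and 24 h had 2 samples, and changes near 2-fold were not among those simulated.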
